A study of Mus musculus with 6 samples.

Results

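Chemokines are small secreted proteins that guide white blood cells, and chemokine receptors are the G protein-coupled receptors on those cells that read them. This report describes 35 mouse genes of both kinds in the mammary fat pad, with 27 ligands and 8 receptors. A gene was counted through every probe set of the array (a group of probes read as 1 value) whose annotation gives that gene's symbol and no other. All 35 genes were found, with 56 probe sets among 45037 on the array, against 18193 genes named in this way in all. The ligands were 16 Ccl genes, 10 Cxcl genes and Cx3cl1, and 7 of the Cxcl genes lie on chromosome 5, which also carries Pxmp2.

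Chemokines are classed by the spacing of their first cysteines. Adjacent cysteines mark the Ccl genes, and a residue between them marks the Cxcl genes. Inflammatory chemokines are made on demand by macrophages, epithelium and other tissue cells and call in monocytes, neutrophils or lymphocytes, while homeostatic ones such as Cxcl12 and Cxcl13 are made at rest. In the growing mammary gland, macrophages and eosinophils gather around the terminal end buds of the ducts, and Ccl11, an attractant of eosinophils, takes part in that recruitment.

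The tissue came from 6 female mice of the C57BL/6J background, 3 wild type (WT) and 3 Pxmp2-/-, without the peroxisomal membrane channel encoded by Pxmp2. The study asked whether the channel is needed for the mammary epithelium to develop. Mice of both genotypes had their ovaries removed at 21 days of age, received estradiol at 31 days and were killed 8 h later, so no group without estradiol was compared. Total RNA of fat pads 4 and 9 was read on Affymetrix arrays, with 1 array per mouse. The labels do not describe the mutant allele further.

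Array medians lay between 98.5 and 104.7 arbitrary units. The Pxmp2 probe set read 2465 to 2797 in WT mice and 260 to 308 in Pxmp2-/- mice, so all 6 labels matched their genotype. Adipocyte genes were bright, with Adipoq at 15299 to 16991, whereas the epithelial genes Krt8, Krt18, Krt5, Krt14 and Epcam stayed at or below 70.6 on every array. Levels here are of whole fat pad, where fewer cells of a type and less RNA per cell cannot be told apart. The 3 arrays per genotype limit the precision of every value, and a permutation of 3 against 3 arrays cannot give a two-sided p below 0.10.

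A level filter kept probe sets with a mean log2(intensity + 16) above 6.23, and 23 of the 35 genes passed with 34 probe sets. Each gene is represented by its brightest probe set, and differences are Pxmp2-/- minus WT on the log2(intensity + 16) scale with the standard error (SE) of limma, a linear model with moderated variances. This scale understates the change of dim probe sets.

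No chemokine or receptor gene passed the threshold of 0.05 after adjustment over all 27022 tested probe sets, of which 0.0629% passed. Adjusted p in limma ran from 0.2 to 0.99 over the 23 genes. Unadjusted p was under 0.05 for 2 genes, the epithelial chemokine gene Ccl28 and the interferon-inducible chemokine gene Cxcl10, both higher in Pxmp2-/- mice. None was lower at that p. Over all tested probe sets 6.12% were higher and 10.5% lower at the same p, against 3 and 0 of the 34 member probe sets. Of the 12775 tested genes 708 were higher and 1101 lower, so 2 of 23 higher genes is near the background. Groups did not overlap for the same 2 genes, both higher, where 7.5% of the 12775 tested genes were separate and higher and 15.1% separate and lower. Counted by probe set, 4 of 34 were separate and higher and 0 separate and lower, against 7.73% and 15.1% of all tested probe sets. After quantile normalization those shares were 10.0% and 11.3%, and the unadjusted counts over all probe sets went from 1655 higher and 2842 lower to 2129 and 2128. After median centring they were 1472 and 3333, with 6.56% and 17.7% separate. Of the 23 genes, 15 had differences above 0, with a median of 0.11, where all tested genes had a median of -0.03. The members' median was 0.05 without Pxmp2-/- 1 or without Pxmp2-/- 2, 0.07 without WT 3 and 0.16 without Pxmp2-/- 3. Ccl28 and Cxcl10 stayed separate with any single array left out, as must any gene whose groups are separate over all arrays. With an array left out, 1 or 2 further genes were separate and higher, and they varied with the array. Ccl12 and Ccl25 were separate and lower without Pxmp2-/- 1, as was Ccl12 without WT 3. Smaller groups separate more readily, and the share over all tested genes is not given for them here.

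**Figure D1:**
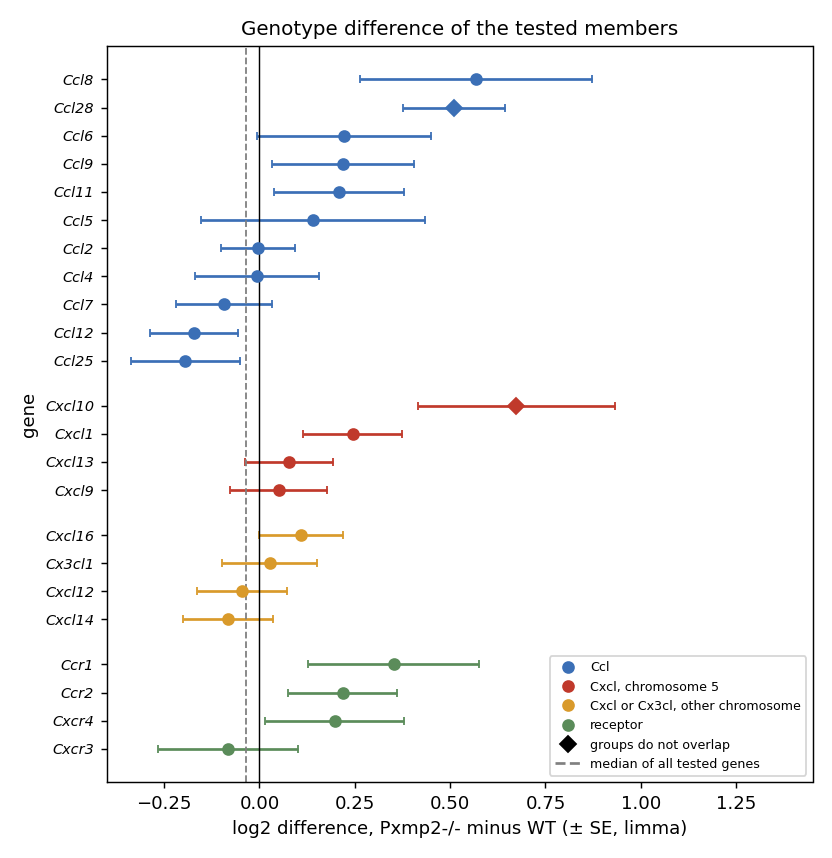
Log2 difference of the 23 tested genes, Pxmp2-/- minus WT, with points for the fitted difference and bars for its SE (3 mice per genotype). Genes are grouped by role, diamonds mark Ccl28 and Cxcl10, whose groups did not overlap, and the dashed line is the median of all tested genes, -0.03.

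The chromosome 5 Cxcl genes come first, since they share a chromosome with Pxmp2. In the RefSeq gene order between 131 (Cxcl13) and 199 (Cxcl5) protein-coding genes separate them from Pxmp2, so none is a direct neighbour. Of the 7 genes, Cxcl1, Cxcl9, Cxcl10 and Cxcl13 passed the filter, and Cxcl2, Cxcl5 and Cxcl11 did not.

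Cxcl9, Cxcl10 and Cxcl11 are the ligands of Cxcr3, a receptor of activated T cells, and interferon gamma switches them on. Cxcl10 read 74.4, 54.8 and 85.28 in WT mice and 191, 85.32 and 109 in Pxmp2-/- mice. The groups were separate only through the near-equal values of WT 3 and Pxmp2-/- 2, and Pxmp2-/- 1 was far above the rest. Mean intensity was 71.5 ± 15.5 (SD, n = 3) for WT and 129 ± 55.3 (SD, n = 3) for Pxmp2-/-. The fitted difference was 0.67 ± 0.26 (SE; limma adjusted p = 0.265). Separation was lost after quantile normalization and after median centring, and without Pxmp2-/- 1 the difference was 0.38.

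Cxcl9 differed little. It read 2279, 1982 and 2394 in WT mice and 2681, 2186 and 2054 in Pxmp2-/- mice. The ranges overlapped widely, and the difference was 0.05 ± 0.13 (adjusted p = 0.863). A second, dimmer probe set of Cxcl9 differed by -0.11 ± 0.13, in the other direction.

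Cxcl11 stayed below the filter, so it was not tested. RefSeq lists it as a transcribed pseudogene in its C57BL/6J reference. Its brighter probe set read 38.3, 30.7 and 30.3 in WT mice and 64.1, 44.1 and 46.5 in Pxmp2-/- mice. All 3 Pxmp2-/- mice were above all WT mice, with Pxmp2-/- 1 highest as for Cxcl10. The second probe set, at 8.18 to 18.9 on all arrays, overlapped between genotypes.

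Cxcl1, a neutrophil attractant that binds Cxcr2, read 268, 215 and 238 in WT mice and 251, 279 and 335 in Pxmp2-/- mice. Only Pxmp2-/- 2 and 3 were above the highest WT mouse, and the difference was 0.24 ± 0.13 (adjusted p = 0.372), or 0.14 without Pxmp2-/- 3. That probe set is of a kind (_x_at) whose probes can also match other transcripts. A second one (_s_at) read 132 to 164 in WT mice and 137 to 153 in Pxmp2-/- mice, with a difference of 0.01. Another (_at), below the filter, read 13.5, 33.4 and 27.4 in WT mice and 38.5, 26.4 and 58.5 in Pxmp2-/- mice. Its groups overlapped.

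Cxcl13 attracts B cells through Cxcr5. It read 121, 118 and 109 in WT mice and 125, 142 and 105 in Pxmp2-/- mice, a difference of 0.08 ± 0.11 (adjusted p = 0.756). Its second probe set gave -0.39 ± 0.40, because Pxmp2-/- 3 read 35.4 where the other 5 arrays read 107 to 159. The sign for Cxcl13 therefore depends on the probe set and on that array. The neutrophil attractant genes Cxcl2 and Cxcl5 read 13.0 to 29.6 and 5.56 to 29.9 over the 6 arrays, below the filter and with overlapping groups.

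The promoters of Cxcl10, Cxcl9 and Cxcl1 are shown because Cxcl10 had the largest difference of the 23 genes, Cxcl9 lies near it and shares its receptor, and Cxcl1 had the next largest difference of the 4 tested chromosome 5 Cxcl genes. Each is the 250 bases before the RefSeq start on GRCm38.p6, 5′ to 3′ on the gene's own strand. Cxcl10 lies at chr5:92348890-92349139 (minus strand), Cxcl9 at chr5:92328080-92328329 (minus strand) and Cxcl1 at chr5:90890995-90891244 (plus strand). Capitals mark matches to GAAANNGAAA, the interferon-stimulated response element, or to GGGANNTNCC, a form of the NF-kB site, searched on both strands with N as any base.
Cxcl10: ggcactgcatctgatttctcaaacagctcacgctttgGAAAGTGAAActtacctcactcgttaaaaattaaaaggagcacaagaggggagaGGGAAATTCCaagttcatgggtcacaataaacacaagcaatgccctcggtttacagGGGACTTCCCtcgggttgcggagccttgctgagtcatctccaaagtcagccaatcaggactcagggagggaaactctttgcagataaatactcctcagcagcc
Cxcl9: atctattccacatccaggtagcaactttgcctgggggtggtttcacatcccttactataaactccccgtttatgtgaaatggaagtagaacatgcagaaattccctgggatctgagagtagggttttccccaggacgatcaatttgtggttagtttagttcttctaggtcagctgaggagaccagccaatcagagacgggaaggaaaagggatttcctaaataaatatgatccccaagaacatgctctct
Cxcl1: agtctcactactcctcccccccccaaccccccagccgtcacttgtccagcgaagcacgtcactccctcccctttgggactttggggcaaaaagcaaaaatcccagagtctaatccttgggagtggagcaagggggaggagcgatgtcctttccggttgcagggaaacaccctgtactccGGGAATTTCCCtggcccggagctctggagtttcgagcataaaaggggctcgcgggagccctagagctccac

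In Cxcl10 the interferon element began 213 bases before the start, and NF-kB matches began 159 and 103 bases before it, the latter on both strands at the same bases. In Cxcl1 a plus-strand and a minus-strand NF-kB match overlapped, giving 11 capitals that begin 71 bases before the start. The letters of neither motif are in this window of Cxcl9, which says nothing about the factors there. RefSeq promoters were at hand for 24 of the 35 genes. The interferon element was in 2 of them (Cxcl10 and Cxcl14) and the NF-kB form in 4 (Cxcl1, Cxcl2, Cxcl10 and Ccr3), against 2.98% and 3.33% of all 32851 promoters. A match is a description of the sequence, not a site of binding.

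Of the chromosome 5 genes of the Cxcl family outside the 35, Cxcl3 and Cxcl15 stayed below the filter. Cxcl3 read 8.55, 12.2 and 11.7 in WT mice and 5.54, 4.4 and 7.63 in Pxmp2-/- mice, separate and lower. Cxcl15 read 19.0 to 52.7 and 38.9 to 59.05, with overlap. Both were named after their values were seen. Pf4 and Ppbp are platelet chemokines, also outside the 35. Ppbp read 544, 273 and 291 in WT mice and 242, 206 and 230 in Pxmp2-/- mice. Its groups were separate with Pxmp2-/- mice lower, a difference of -0.61 ± 0.24 (adjusted p = 0.27), with WT 1 far above the rest. Pf4 differed by -0.13 ± 0.11, so these 2 lay on the other side of 0 from the 4 tested chromosome 5 members. Among all 808 tested chromosome 5 genes, 10.0% were separate and higher and 17.2% separate and lower in Pxmp2-/- mice.

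The 16 Ccl genes lie mostly elsewhere, 10 of them on chromosome 11, and 11 passed the filter. Ccl28, a chemokine of mucosal and glandular epithelium that draws in plasma cells and T cells, had the smallest p of all members. It read 138, 98.9 and 103 in WT mice and 158, 187 and 156 in Pxmp2-/- mice. Every Pxmp2-/- mouse was above every WT mouse. Mean intensity was 113 ± 21.2 (SD, n = 3) for WT and 167 ± 17.8 (SD, n = 3) for Pxmp2-/-. The fitted difference was 0.51 ± 0.13 (SE; limma adjusted p = 0.2). It stayed between 0.43 and 0.64 with any single array left out. The 2 other Ccl28 probe sets were below the filter and went opposite ways, with 15.4 to 27.9 in WT against 18.4 to 51.4 in Pxmp2-/- mice for the first, and 14.1 to 19.1 against 7.37 to 13.7, without overlap, for the second. Epithelial markers were mostly dim, with 3 of 9 above the filter and summed levels of 244 to 317 in WT and 297 to 404 in Pxmp2-/- mice. Among these 3, the cell adhesion gene Cdh1 differed by 1.01 ± 0.36 and the keratin gene Krt19 by -0.39 ± 0.15 (adjusted p = 0.252 and 0.272). Cdh1 read 117, 39.8 and 40.8 in WT mice and 200, 105 and 116 in Pxmp2-/- mice. Its groups overlapped, and WT 2 and WT 3 were below the filter limit of 59.1 units. Krt19 was separate and lower. The part of the epithelial markers in the Ccl28 difference was not tested.

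**Figure D2:**
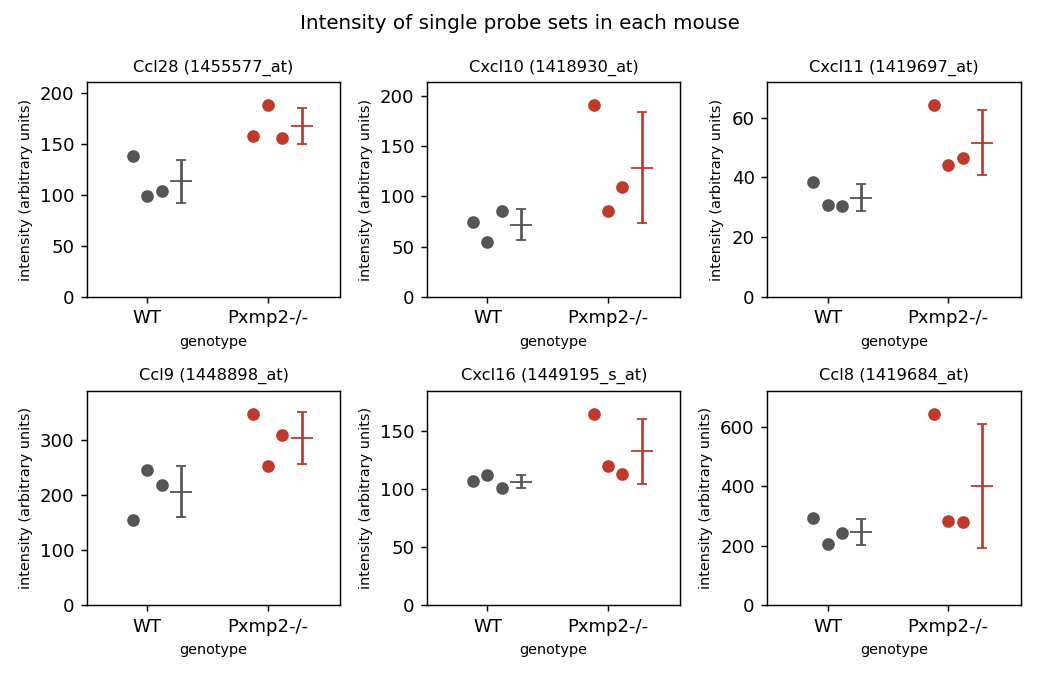
Intensity (arbitrary units, axes from 0) of 6 probe sets in each mouse, with the mean and SD of the 3 mice beside the points. In 5 of the panels no WT point reaches a Pxmp2-/- point, and in the Ccl8 panel Pxmp2-/- 1 at 643 lies apart from the other 5 mice. The 5 panels show the member probe sets that were separate and higher, so they are not typical of the set. A Ccl28 probe set below the filter that was separate and lower is not drawn.

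On chromosome 11, Ccl6, Ccl8 and Ccl9 read highest in Pxmp2-/- 1. Ccl8, a ligand for monocyte and T cell receptors, read 294, 207 and 242 in WT mice and 643, 283 and 280 in Pxmp2-/- mice. Only Pxmp2-/- 1 exceeded the WT range, and the difference of 0.57 ± 0.30 (adjusted p = 0.378) was 0.19 without it. Ccl6, which macrophages make, read 1178, 1307 and 1774 in WT mice and 2244, 1277 and 1519 in Pxmp2-/- mice. Its difference of 0.22 ± 0.23 became -0.01 without Pxmp2-/- 1, and a second probe set gave 0.24 ± 0.26.

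Ccl9, the neighbour and close relative of Ccl6, read 688, 837 and 949 in WT mice and 1246, 788 and 884 in Pxmp2-/- mice. The groups overlapped, with a difference of 0.22 ± 0.19 (adjusted p = 0.572) that was 0.03 without Pxmp2-/- 1 and 0.10 without WT 1. A dimmer probe set of Ccl9 read 155, 245 and 219 against 347, 254 and 310, with separate groups and a difference of 0.54 ± 0.18 (adjusted p = 0.234). Both probe sets of Ccl9 differed in the same direction, and the groups were separate in the dimmer one alone.

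Ccl11, the eosinophil attractant, read 618, 817 and 939 in WT mice and 1035, 920 and 775 in Pxmp2-/- mice. The ranges overlapped, with a difference of 0.21 ± 0.17 (adjusted p = 0.554). With an array left out it ran from 0.04 (without WT 1) to 0.34 (without WT 3), with 0.11 without Pxmp2-/- 1 and 0.32 without Pxmp2-/- 3. Of the 4 eosinophil marker genes read on the array, Il5ra passed the filter at 64.4 to 71.1 over the 6 arrays and did not separate the genotypes, and Prg2, Epx and Siglecf were at or below 38.1 on every array.

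Ccl5, which T cells and other cells make, varied more within the genotypes than between them. It read 599, 383 and 408 in WT mice and 490, 772 and 333 in Pxmp2-/- mice, so that the highest and the lowest array were both Pxmp2-/-. The difference was 0.14 ± 0.29 (adjusted p = 0.835).

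The monocyte chemokine genes Ccl2, Ccl7 and Ccl12, ligands of Ccr2, had differences at or below 0. Ccl2 read 78.6 to 93.7 in WT and 77.4 to 89.0 in Pxmp2-/- mice, a difference of -0.00 ± 0.10. Ccl7 differed by -0.09 ± 0.13. Ccl12 read 220, 239 and 188 in WT mice and 211, 184 and 174 in Pxmp2-/- mice, a difference of -0.17 ± 0.12 (adjusted p = 0.475). It was -0.26 without WT 3 and -0.10 without WT 2. Ccl4, an attractant of monocytes and T cells, read 51.3 to 88.6 and 60.5 to 75.5, a difference of -0.01 ± 0.16. Ccl25, a homing signal for gut and thymus lymphocytes, read 112, 119 and 112 in WT mice and 127, 86.1 and 85.3 in Pxmp2-/- mice, the lowest difference of the 23 genes at -0.19 ± 0.14 (adjusted p = 0.508). Pxmp2-/- 2 and 3 lay below all WT mice and Pxmp2-/- 1 above them. The difference was -0.36 without Pxmp2-/- 1 (adjusted p = 0.113), and -0.11 without Pxmp2-/- 2 or without Pxmp2-/- 3. A second probe set of Ccl25 gave -0.15 ± 0.11.

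The chromosome 5 Cxcl genes and the Ccl genes can be set side by side. The 4 tested chromosome 5 Cxcl genes ran from 0.05 to 0.67 with a median of 0.16, and all 4 were above 0. The 11 tested Ccl genes ran from -0.19 to 0.57 with a median of 0.14, and 6 were above 0. In each set 1 gene had separate groups, Cxcl10 and Ccl28. Medians over all tested genes of chromosomes 5 and 11 were -0.03 and -0.04. The Ccl median rested on single arrays and on the filter, with -0.01 without Pxmp2-/- 1, 0.05 without Pxmp2-/- 2, 0.06 without WT 2, 0.07 without WT 3, 0.27 without Pxmp2-/- 3 and -0.00 over all 16 genes without a filter. The Cxcl median was 0.05 when all tested probe sets of a gene were averaged, where Cxcl9 and Cxcl13 were -0.03 and -0.16 and Cxcl1 was 0.13. With 4 genes in the smaller set, and members that are not replicates, the sets were not tested against each other.

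Ligands of the CXC and CX3C classes on other chromosomes had differences from -0.08 to 0.11. Cxcl12, which holds stem cells and lymphocytes through Cxcr4, read 2418, 2894 and 2893 in WT mice and 2980, 2562 and 2411 in Pxmp2-/- mice. The difference was -0.05 ± 0.12, and 0.0022 after quantile normalization, and that of its second probe set was -0.01 ± 0.09. Cxcl14, an epithelial and fibroblast chemokine, read 252 to 262 in WT and 204 to 278 in Pxmp2-/- mice (-0.08 ± 0.12), with a second probe set at -0.25 ± 0.22.

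Cxcl16 is a membrane-bound chemokine of macrophages and endothelium that binds Cxcr6. It read 378, 340 and 307 in WT mice and 360, 409 and 340 in Pxmp2-/- mice, a difference of 0.11 ± 0.11. It was 0.04 without Pxmp2-/- 2 or without WT 3, 0.18 without WT 1 and 0.16 without Pxmp2-/- 3. Its dimmer probe set read 107, 112 and 101 against 165, 120 and 113, with separate groups and a difference of 0.26 ± 0.14 (adjusted p = 0.365). WT 2 and Pxmp2-/- 3 were 112.2 and 113.4 there. Cx3cl1, the membrane-bound ligand of Cx3cr1, differed by 0.03 ± 0.12, and by 0.21 ± 0.11 in its other tested probe set, with overlapping groups in both. Of its 2 probe sets below the filter, 1 read higher and 1 lower on average in Pxmp2-/- mice (24.8 against 31.2, and 7.79 against 5.32, WT first).

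Among the 8 receptors, Ccr1, Ccr2, Cxcr3 and Cxcr4 passed the filter, and none had separate groups. Ccr2, the monocyte receptor, read 427, 452 and 396 in WT mice and 621, 428 and 458 in Pxmp2-/- mice. Pxmp2-/- 1 was highest, and the difference was 0.22 ± 0.14 (adjusted p = 0.462), with 0.03 ± 0.17 in a second tested probe set. Without Pxmp2-/- 1 the difference was 0.06. Of 2 further Ccr2 probe sets, both below the filter, mean intensity was 21.2 in WT and 21.4 in Pxmp2-/- mice for the first and 20.2 and 16.8 for the second, with overlapping groups. Ccr1, a receptor for several Ccl ligands on monocytes and neutrophils, read 50.8, 50.9 and 97.6 in WT mice and 105, 70.0 and 85.3 in Pxmp2-/- mice, with 0.35 ± 0.22 (adjusted p = 0.45). WT 3 stood apart from the other WT mice, and without it the groups were separate with a difference of 0.61 (adjusted p = 0.358), against 0.22 without WT 1, 0.23 without WT 2 and 0.23 without Pxmp2-/- 1. A second Ccr1 probe set, below the filter, had means of 24.1 in WT and 23.5 in Pxmp2-/- mice. It passed the filter at 66.4 ± 27.0 and 86.8 ± 17.6 (SD, n = 3 each), close to the limit of 59.1 units.

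The lymphocyte receptors gave small differences of either sign. Cxcr3 read 145, 113 and 163 in WT mice and 171, 123 and 105 in Pxmp2-/- mice, a difference of -0.08 ± 0.18. That of its ligand gene Cxcl10 was 0.67 ± 0.26 (limma adjusted p = 0.265). Cxcr4, the receptor of Cxcl12, read 140, 135 and 84.0 in WT mice and 122, 159 and 130 in Pxmp2-/- mice, a difference of 0.20 ± 0.18. WT 3 was the low array, and without it the difference was -0.01.

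Below the filter were 12 genes, the ligand genes Ccl3, Ccl17, Ccl20, Ccl22, Ccl24, Cxcl2, Cxcl5 and Cxcl11 and the receptor genes Ccr3, Ccr7, Cxcr2 and Cxcr5. Groups overlapped for all of them except Cxcl11. Ccl20, which draws in Ccr6-bearing cells, read at most 8.19 on any array. Ccr7, which guides dendritic and naive T cells to lymph nodes, read 53.5, 46.3 and 37.5 in WT mice and 54.9, 119 and 16.3 in Pxmp2-/- mice. Its highest and lowest arrays were thus both Pxmp2-/-, as for Ccl5. The dendritic cell chemokine gene Ccl22 read 6.69 to 22.9 in WT mice and 18.2, 49.7 and 14.8 in Pxmp2-/- mice. Ccl24, a second eosinophil attractant and the only Ccl member on chromosome 5, read 31.3 to 76.8 and 28.4 to 60.3.

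The spread between mice of a genotype was considerable for these genes. The median SD within a genotype was 0.20 on the log2 scale for the 23 genes and 0.12 for all tested genes, whose median level was also higher (9.07 against 7.76). The receptors had the highest median SD, 0.28, followed by the Ccl genes with 0.24. Pxmp2-/- 1 was the highest array for 11 of the 23 genes, against 17.5% of all tested genes. These were Ccl6, Ccl8, Ccl9, Ccl11, Ccl25, Cxcl9, Cxcl10, Cxcl12, Ccr1, Ccr2 and Cxcr3. Pxmp2-/- 2 was highest for 6, namely Ccl5, Ccl28, Cxcl13, Cxcl14, Cxcl16 and Cxcr4, against 14.5% of all tested genes. Pxmp2-/- 3 was the highest array for Cxcl1 alone, against 10.1% of all tested genes, and the lowest for 6 of the 23, near its share of 25.6% over all tested genes.

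**Figure D3:**
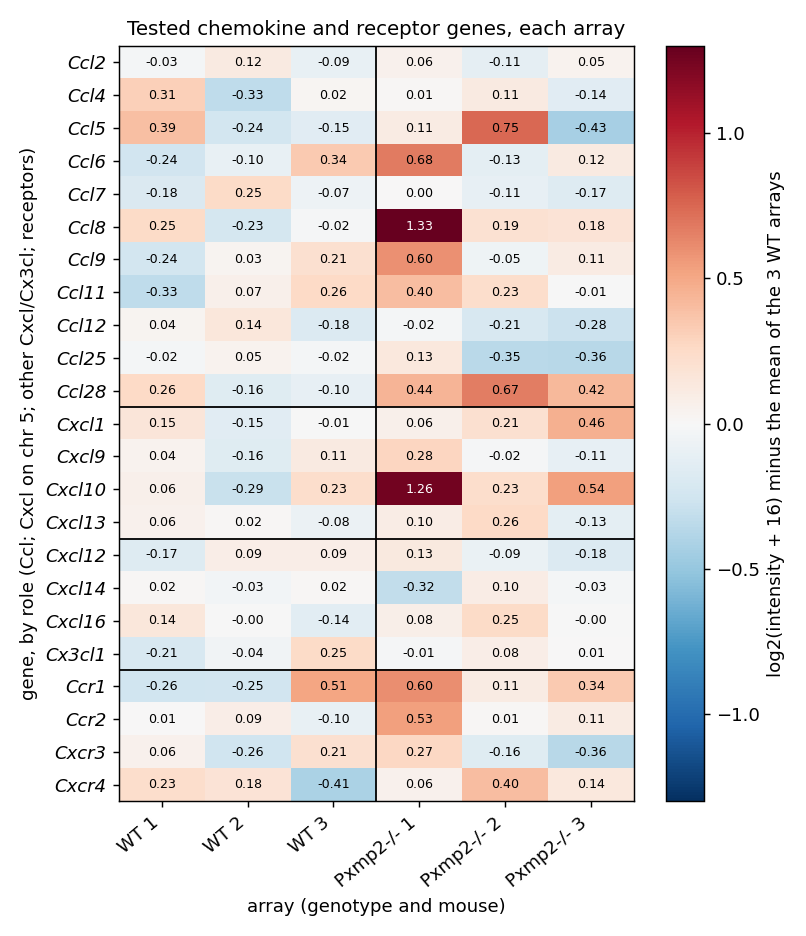
Each cell gives log2(intensity + 16) of a tested gene on an array minus the mean of the 3 WT arrays, in log2 units, with rows grouped by role. Pxmp2-/- 1 holds the largest values, 1.33 for Ccl8 and 1.26 for Cxcl10, and Pxmp2-/- 2 holds 0.75 for Ccl5 and 0.67 for Ccl28.

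The macrophage, T cell, B cell and neutrophil marker lists summed highest on Pxmp2-/- 1 or 2. The dendritic cell, mast cell and eosinophil lists summed highest on a WT array, for mast cells only by 757 against 756. Of the 12775 tested genes, 7.5% were separate and higher and 15.1% separate and lower, the shares for the counts of separate genes below. Macrophage markers (13 of 14 above the filter, Marco at or below 3.3) summed to 9202 to 10268 in WT mice and to 13020, 10160 and 10117 in Pxmp2-/- mice, so Pxmp2-/- 1 was highest. Of the 13 genes 3 had separate groups, all higher, and the list's median was 0.11. The lysozyme gene Lyz2 had the largest difference of the list (0.85 ± 0.10, limma adjusted p = 0.0589). Adgre1 (0.46 ± 0.13) and Csf1r (0.31 ± 0.09) were also separate (adjusted p = 0.203 and 0.216). Cd68 differed by 0.40 ± 0.15 (adjusted p = 0.258), with overlapping groups. Other macrophage markers had differences below 0, namely Lyve1 (-0.68 ± 0.32), which lymphatic vessels share, Mrc1 (-0.19 ± 0.14), Msr1 (-0.19 ± 0.13), Cd14 (-0.07 ± 0.11) and Cd163 (-0.02 ± 0.25). T cell markers (5 of 10) summed to 480 to 621 in WT mice and to 694, 1092 and 560 in Pxmp2-/- mice, with Pxmp2-/- 2 highest and 1 gene with separate groups. Cd3e and Cd4 were at or below 11.7 on every array. Cd3d, Cd3g and Cd8a passed the filter, at 41.9 to 164, 44.05 to 180 and 71.3 to 151 over all arrays. B cell markers (5 of 9) summed to 1658 to 1829 and 1869 to 2064, without overlap between genotypes. The antibody gene Ighm made up most of each sum (1281 to 1525), and it alone of the 5 genes had separate groups. Neutrophil markers (4 of 10) summed to 618 to 716 and 696 to 785, mast cell markers (5 of 8) to 535 to 757 and 721 to 756, and dendritic cell markers (4 of 10) to 4546 to 5527 and 4543 to 5411. The 5 mast cell genes had a median difference of 0.19, with overlapping groups. Fscn1 made up most of each dendritic cell sum (3975 to 5046) and differed by -0.09 ± 0.12. Itgax was separate and higher (0.44 ± 0.14, limma adjusted p = 0.23), and Batf3 and Zbtb46 differed by 0.16 ± 0.13 and -0.31 ± 0.17. Endothelial sums were lower in Pxmp2-/- mice (16247 to 18186 against 19817 to 21009), as 6 of 8 genes were separate and lower. Fibroblast sums were 51921 to 61300 in WT and 43540 to 51968 in Pxmp2-/- mice, so that only WT 1 and Pxmp2-/- 2 kept them from separating. Of the 8 fibroblast genes 2 were separate and lower, Lum and Pdgfra, and the list's median was -0.27 against -0.24 for the endothelial list. Pdgfra, a receptor of platelet-derived growth factor, differed by -1.25 ± 0.26 (adjusted p = 0.158). Lymphatic and adipocyte sums overlapped between genotypes. The part of these cells in the chemokine differences was not tested.

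**Figure D4:**
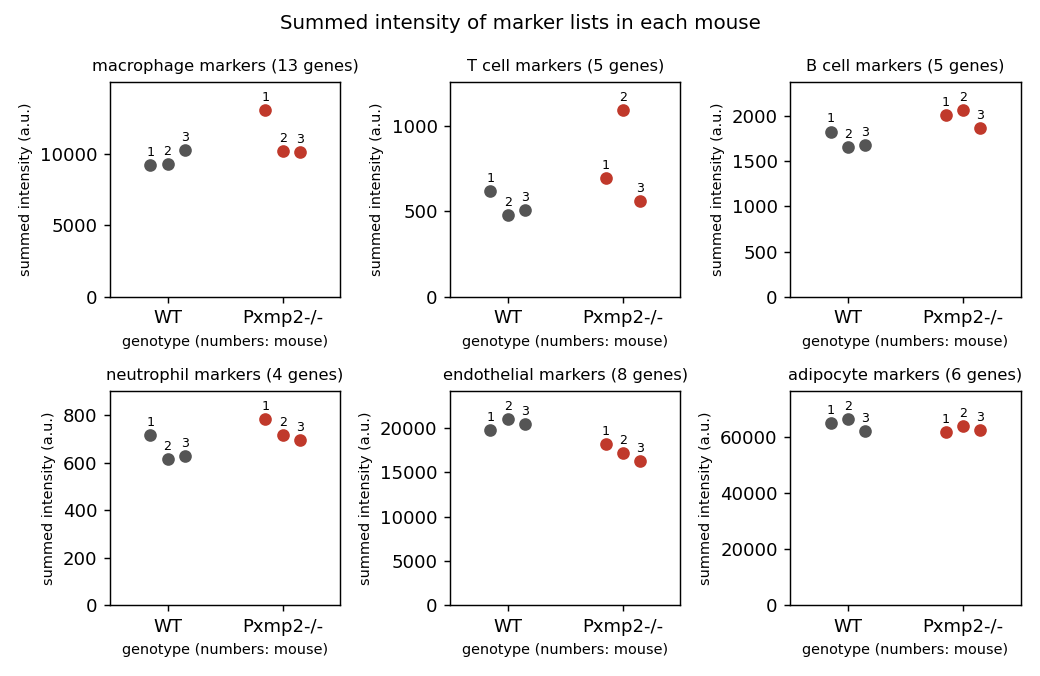
Summed intensity (arbitrary units, axes from 0) of the marker genes above the filter in each mouse, for 6 cell types, with mouse numbers beside the points. Pxmp2-/- 1 is highest for macrophage markers (13020) and Pxmp2-/- 2 for T cell markers (1092), and endothelial sums are lower in all 3 Pxmp2-/- mice.

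Other genes of the pathway were read from 5 lists, and none of their tested genes passed 0.05 after limma's adjustment over all probe sets. Of 11 further ligand genes 3 were tested, Ppbp, Pf4 and Ccl27a, all below 0. Of 11 further receptors 2 were tested, Ccrl2 and Cxcr6 (-0.08 ± 0.20, with overlapping groups). Ccrl2, an atypical receptor that binds chemerin, read 142 ± 1.18 in Pxmp2-/- mice against 169 ± 13.3 in WT mice (SD, n = 3 each). It was separate and lower (-0.22 ± 0.09). Below the filter, Cx3cr1, the receptor of Cx3cl1, read 14.9, 20.5 and 19.6 in WT mice and 36.2, 24.8 and 29.7 in Pxmp2-/- mice. Its groups were separate, with Pxmp2-/- mice higher, and it was named after its values were seen. The 4 atypical receptors, which scavenge chemokines, were all tested. Ackr2 was separate and higher (0.30 ± 0.14), and Ackr3, which takes up Cxcl12, differed by -0.11 ± 0.17.

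Of 20 genes of signal transduction below the receptors, 15 were tested and 2 were higher at an unadjusted limma p under 0.05, with none lower. At that p 708 of the 12775 tested genes were higher and 1101 lower (6.12% and 10.5% of all tested probe sets). Rac2, the Rac GTPase of blood cells that drives their migration, had the highest value at 0.51 ± 0.17 (163 ± 15.3 in WT and 243 ± 60.3 in Pxmp2-/- mice), followed by Dock2, its activator, at 0.40 ± 0.15. Dock2 was named after its value was seen. The G protein subunit gene Gnb1 had the lowest value at -0.23 ± 0.11, and the list's median was 0.01.

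Of 21 cytokine and NF-kB genes that induce chemokines or respond with them, 11 were tested, with a median of 0.17. At an unadjusted limma p under 0.05, 4 were higher and 1 lower. At that p 708 of the 12775 tested genes were higher and 1101 lower (6.12% and 10.5% of all tested probe sets). Nfkbie and Nfkbia, inhibitors of NF-kB that NF-kB itself induces, differed by 0.42 ± 0.09 and 0.27 ± 0.10, both with separate groups. Tnfaip3, a brake on the same pathway, differed by 0.47 ± 0.20 and the macrophage growth factor gene Csf1 by 0.27 ± 0.09. Of these 4, Nfkbie, Nfkbia and Csf1 were named after their values were seen. Irf1, a factor downstream of interferon, was separate and lower at -0.25 ± 0.09 (limma adjusted p = 0.254). Cxcl10, which interferon induces, differed by 0.67 ± 0.26 (adjusted p = 0.265), and the part of Irf1 in that difference was not tested. The cytokine genes Il1b, Il1a, Il6, Ifng, Il10, Il4, Il13 and Csf2 stayed below the filter, at or under 46.9.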

How the data were processed

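For each mouse the authors deposited linear intensity values of 45037 probe sets. RNA was labelled with biotin, per the labels. No source used here gives the probe summary or the scaling between arrays. Symbols came from the platform annotation (1 symbol for 34945 probe sets, several for 932, none for 9160). Chromosomes, gene order and promoters came from RefSeq tables of GRCm38.p6, where all 35 members matched. Groups came from the labels.

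Values were taken as log2(intensity + 16). Probe sets above the 40th percentile of mean level (27022) were fitted by lmFit and eBayes of limma (version 3.58.1, R version 4.3.3), two-sided. P-values were adjusted by Benjamini-Hochberg over those probe sets, with a threshold of 0.05. The script was tested on simulated data. A gene was represented by its single-symbol probe set of highest mean level, and its other probe sets are given where they differ in sign or overlap.

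All 35 members are accounted for. Values of each array are given for tested members with separate groups or an unadjusted p under 0.05, for the tested chromosome 5 Cxcl members and for examples of each role. Genes of the 5 pathway lists were named where they passed the adjusted threshold or had the largest difference of their list in either direction, with exceptions stated. Single cell type markers were named after their values were seen. Members and lists were chosen with earlier results of these data known. The labels give separate mice without litters, and p-values measure the spread between these mice. List genes without a single-symbol probe set were not analysed here. Plots used matplotlib 3.10.9.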

Additional observations from a re-analysis of the deposited data

How the results depend on the processing

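The values were recomputed with pseudocounts of 1 and 64, quantile normalization, median centring, no filter, a filter at the 60th percentile, a replicate block, the mean of a gene's probe sets, and each array left out. In these 14 alternatives no member passed the adjusted threshold (smallest adjusted p in limma 0.113), and 11 of the 23 tested genes kept their sign. The cause of the changes was not tested. The 17 probe sets called overall became 1 without a filter, 1 with the replicate block, and 1 to 33 with an array left out. Arrays with the same number correlated at 0.02, 0.04 and -0.12 in their deviations, so the numbers were not taken to pair mice. The Ccl median of 0.14 was -0.0047 without a filter and -0.0053 to 0.2729 with an array left out. The chromosome 5 Cxcl median of 0.16 was 0.1339 with pseudocount 64, 0.1881 after quantile normalization, 0.0474 over mean probe sets and 0.1294 to 0.2141 with an array left out. Genes separate and higher numbered 1 after quantile normalization, 1 after centring, 0 at the 60th percentile, where Ccl28 and Cxcl10 are no longer tested, and 3 to 4 with an array left out. Genes separate and lower numbered 0 to 2 with an array left out. The share over all tested genes is not given for these smaller groups, which separate more readily. Genes higher at an unadjusted p under 0.05 numbered 0 at the 60th percentile and 1 to 3 with an array left out, and lower ones 0 to 1. Cxcl12 turned to 0.0022 after quantile normalization, and Cxcl13 and Cxcl9 turned to -0.1572 and -0.0315 over mean probe sets. With an array left out, the difference of 12 genes changed sign. It ran from -0.0506 to 0.0567 for Ccl2, -0.1706 to 0.1476 for Ccl4, -0.1612 to 0.4262 for Ccl5, -0.0053 to 0.3975 for Ccl6, -0.1846 to 0.0336 for Ccl7, -0.0777 to 0.1511 for Cx3cl1, -0.1325 to 0.0196 for Cxcl12, -0.0145 to 0.1799 for Cxcl13, -0.1715 to 0.0356 for Cxcl14, -0.0613 to 0.1298 for Cxcl9, -0.2597 to 0.0568 for Cxcr3 and -0.0086 to 0.3121 for Cxcr4. Low signal limits the 12 members below the filter, which have no test, and Ccr1, Ccl2, Ccl4 and Ccl7, which lie just above it. Cxcl10 was also near the limit of 59.1 units in WT mice, at 54.8 to 85.28.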
